A study of Mus musculus with 4 samples.

Results

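Divergent promoters are stretches of DNA from which 2 neighbouring protein-coding genes are transcribed in opposite directions. They were taken here from the GENCODE vM21 gene records of the mouse genome (GRCm38) as pairs in which the 5′ end of a minus-strand gene lies 0 to 1000 bp before the 5′ end of a plus-strand gene. The rule gave 756 pairs, which hold 1491 of 21951 protein-coding genes (6.79%), and 42 pairs share a gene with another pair. The 756 regions are 756 of 21216 protein-coding promoter regions when each pair is counted once. Each region runs from 500 bp outside one 5′ end to 500 bp outside the other, with a median length of 1130 bp. Single-gene promoters served as the comparison: the 18811 protein-coding 5′ ends with no other protein-coding 5′ end within 2000 bp, each taken with 500 bp on both sides. A further class of 689 regions pairs a coding gene in the same way with a long noncoding RNA gene. Its coding genes are in no coding pair and are also counted among the single-gene or the remaining coding promoters, so these classes overlap.

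The values come from PRO-seq, which reads nascent RNA from polymerases that resume elongation in a run-on reaction, in 2 liver and 2 yolk sac libraries of mouse embryos (E14.5). Liver and yolk sac were unselected whole tissues, each library was pooled from 6 embryos, and both tissues came from the same type of cross. C57BL/6J females were crossed with males of a mixed C57BL/6J and CAST/EiJ background that had been chosen for CAST/EiJ alleles of Dlk1/Gtl2 (chromosome 12). All 4 libraries thus come from such crosses, with no inbred control, and no allele was resolved here. One list of dREG peaks per library was used: dREG classifies intervals as transcription start regions from the run-on signal on both strands. A region was counted as called when at least 1 bp of a peak lay over it.

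In a divergent promoter, the start sites of both genes face away from each other across a short, usually GC-rich stretch that lacks nucleosomes and can recruit 2 separate initiation complexes. Many mammalian promoters of single genes also initiate in both directions, but the upstream product is an unstable RNA that ends early. Pairs of this kind are known for genes of DNA repair, mitochondrial function and core histones, and members of a pair are often, but not always, active together. A dREG peak carries no strand, so a peak over both 5′ ends does not tell which gene is transcribed.

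The 5′ ends of the pairs lay close together. The median distance was 129 bp, the quartiles were 66.8 and 240 bp, and 620 pairs (82.0%) were at most 300 bp apart. At such distances the whole core promoter of both genes fits into 1 stretch of sequence. The intervals between the annotated 5′ ends of 5 such pairs are shown first, because each lay under 1 peak in all 4 lists, and a sixth follows that lacks their motifs. All intervals shown were chosen after their values were seen. They are given on the plus strand, 5′ to 3′, as read from RefSeq promoters of GRCm38.p6, with the minus-strand gene to the left, and capitals mark matches to the motifs named below.

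Sdhd/Timm8b (chr9:50603813-50603909): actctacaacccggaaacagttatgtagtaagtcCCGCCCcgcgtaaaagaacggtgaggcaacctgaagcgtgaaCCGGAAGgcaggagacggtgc
Osgep/Apex1 (chr14:50924894-50924967): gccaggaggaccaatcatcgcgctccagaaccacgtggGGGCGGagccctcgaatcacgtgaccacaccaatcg
Rfng/Gps1 (chr11:120784208-120784271): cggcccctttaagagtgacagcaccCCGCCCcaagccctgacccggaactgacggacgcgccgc
Psmb1/Tbp (chr17:15499752-15499887): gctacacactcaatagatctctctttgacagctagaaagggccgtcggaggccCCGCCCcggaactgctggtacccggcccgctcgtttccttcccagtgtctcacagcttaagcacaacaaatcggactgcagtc
Lsm7/Sppl2b (chr10:80855210-80855274): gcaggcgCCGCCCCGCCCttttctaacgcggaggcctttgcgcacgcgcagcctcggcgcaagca
Zfp408/Arhgap1 (chr2:91649792-91649859): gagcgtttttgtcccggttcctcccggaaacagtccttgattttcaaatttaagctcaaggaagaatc

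Sdhd encodes a membrane anchor of succinate dehydrogenase and Timm8b a chaperone of mitochondrial protein import. Osgep takes part in tRNA modification, and Apex1 is the main endonuclease of base excision repair. Rfng modifies Notch receptors, Gps1 is a subunit of the COP9 signalosome, Psmb1 is a catalytic-core subunit of the proteasome and Tbp is the TATA-binding protein. Lsm7 belongs to the LSm ring that binds U6 RNA, and Sppl2b is an intramembrane protease. The first 5 intervals hold a GC box and none of them a TATA box. Zfp408/Arhgap1, also called in all 4 lists, matched no motif, and the interval of Aurka/Cstf1, not shown, holds 2 CCAAT boxes and no GC box.

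Histone pairs looked different, and 2 of them are shown for that reason.

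Hist1h2ae/Hist1h2bg (chr13:23571221-23571395): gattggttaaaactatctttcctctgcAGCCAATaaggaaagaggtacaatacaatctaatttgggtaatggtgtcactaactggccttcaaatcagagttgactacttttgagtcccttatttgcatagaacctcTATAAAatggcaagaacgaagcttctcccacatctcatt
Hist1h2ac/Hist1h2bc (chr13:23683949-23684198): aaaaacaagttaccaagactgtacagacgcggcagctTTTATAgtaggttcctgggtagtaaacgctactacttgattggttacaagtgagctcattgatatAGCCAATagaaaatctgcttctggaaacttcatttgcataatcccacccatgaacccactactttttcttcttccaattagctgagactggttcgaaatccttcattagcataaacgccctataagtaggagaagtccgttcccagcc

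Both intervals hold a CCAAT box and a TATA box and no GC box. Their GC content was 38.3% and 41.6%, against 44.1% to 72.3% in the 6 intervals above. Each pair joins a gene for H2A with a gene for H2B, which form a dimer in the nucleosome.

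The next intervals belong to pairs called in both yolk sac lists and in neither liver list.

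Zfyve28/Cfap99 (chr5:34288450-34288599): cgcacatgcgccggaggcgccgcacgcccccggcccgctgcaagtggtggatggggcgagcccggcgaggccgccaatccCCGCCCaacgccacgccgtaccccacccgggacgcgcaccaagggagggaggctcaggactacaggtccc
Smc1b/Ribc2 (chr15:85131965-85132077): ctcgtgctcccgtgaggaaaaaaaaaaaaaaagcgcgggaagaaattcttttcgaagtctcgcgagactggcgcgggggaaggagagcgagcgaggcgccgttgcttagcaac

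Zfyve28 encodes a FYVE-domain protein of endosomes and Cfap99 a protein associated with cilia and flagella. Smc1b is the meiotic form of a cohesin subunit. The last intervals belong to pairs without a peak in any list, and the fourth of these is a histone pair.

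Rnf151/Rps2 (chr17:24718064-24718115): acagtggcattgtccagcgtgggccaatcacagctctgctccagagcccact
Dgcr2/Tssk2 (chr16:17898563-17898636): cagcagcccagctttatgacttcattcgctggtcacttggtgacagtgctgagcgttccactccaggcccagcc
Col4a4/Col4a3 (chr1:82586850-82586920): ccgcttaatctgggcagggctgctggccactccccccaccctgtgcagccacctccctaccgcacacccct
Hist1h2ap/Hist1h2br (chr13:21833508-21833742): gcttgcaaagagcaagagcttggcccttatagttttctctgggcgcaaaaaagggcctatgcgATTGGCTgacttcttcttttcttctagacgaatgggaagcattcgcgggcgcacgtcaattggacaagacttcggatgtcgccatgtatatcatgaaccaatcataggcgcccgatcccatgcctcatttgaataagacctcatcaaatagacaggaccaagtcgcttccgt

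The intervals of Rnf151/Rps2, Dgcr2/Tssk2 and Col4a4/Col4a3 matched none of the motifs and hold 1, 2 and 2 CpG dinucleotides. That of Hist1h2ap/Hist1h2br holds a CCAAT box and 13 CpG dinucleotides, so pairs without a peak were not uniform in sequence. Rps2 is a protein of the small ribosomal subunit, Tssk2 is a testis-specific kinase, and Col4a3 and Col4a4 are chains of basement membrane collagen.

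The motifs were searched on both strands of 1 RefSeq promoter per pair, 300 bases from 250 before to 50 after the start. An entry within 100 bp of the annotated 5′ end was found for 639 of 756 pairs (84.5%). The background is the share of all 32851 promoters of the same length in the table. Unlike the pairs, it was not filtered by gene type or by a match to an annotated 5′ end. The part of this selection, and of GC content, in the differences below was not tested. The ETS site CCGGAAG occurred in 28.0% of pairs and in 8.86% of all promoters. The YY1-like site AAGATGGC occurred in 8.29% of pairs and 2.75% of all promoters. The GC box GGGCGG occurred in 69.3% against 35.7%, the NRF1-like site GCGCATGC in 6.57% against 2.71%, and the E2F site TTCCCGCC in 6.26% against 2.19%. The TATA box TATAAA was the exception, at 4.54% of pairs and 13.6% of all promoters. The CCAAT box AGCCAAT was found in 15.8% against 7.86%, the cAMP response element TGACGTCA in 5.32% against 1.79%, and the ZNF143-like site ACTACAA in 5.32% against 3.24%. The GC box and the E2F site can share letters, and no other overlap was removed. These matches describe the sequence and are not evidence of binding. The class of single-gene promoters was matched for only 56.0%, so a comparison of sequence between the classes is void and none was made.

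Histone pairs and the other pairs had different motifs. Of 13 pairs of histone genes with an entry, 9 held the CCAAT box and 8 the TATA box, while 0 held the ETS site. Among the 626 other pairs, 14.7% held the CCAAT box, 3.35% the TATA box and 28.6% the ETS site. The median GC content of the 639 promoters was 62.7% and the median ratio of observed to expected CpG was 0.855, against 52.7% and 0.384 over all promoters in the table.

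The first comparison asked how often divergent promoters were called. In liver, 701 regions (92.7%, 95% Wilson interval 90.6 to 94.4) had a peak in replicate 1 and 710 (93.9%, 92.0 to 95.4) in replicate 2. In yolk sac, 725 regions (95.9%, 94.2 to 97.1) had a peak in each replicate. These intervals cover counting error over regions only, and the read depth behind each list is unknown. Single-gene promoters were called at 46.8% and 48.5% in liver and at 54.8% and 53.4% in yolk sac. The difference between the classes, taken within each list, was 46.0, 45.4, 41.1 and 42.5 percentage points, a mean of 43.7 ± 2.33 (SD, n = 4). It had the same sign in 4 of 4 lists (exact two-sided sign-flip permutation p = 0.125, the smallest that 4 libraries allow). Coding genes paired with a long noncoding RNA gene lay between the 2 classes, at 75.8%, 77.2%, 82.0% and 81.3%. Divergent coding pairs exceeded these by 15.5 ± 1.52 percentage points (SD, n = 4; exact sign-flip permutation p = 0.125).

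**Figure D1:**
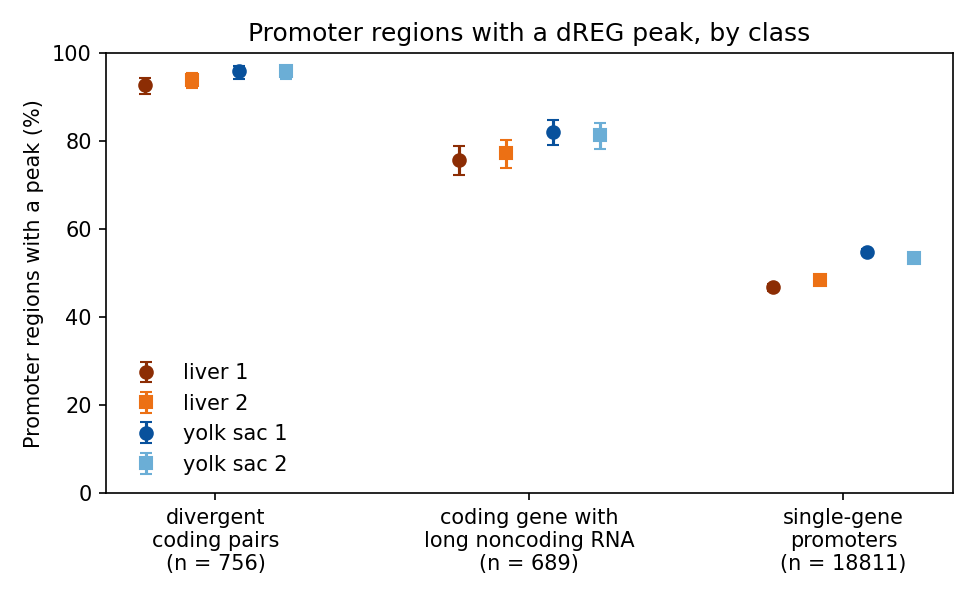
Percent of promoter regions with a dREG peak (vertical axis) for divergent coding pairs, coding genes paired with a long noncoding RNA gene and single-gene promoters, with 1 point per library and bars for the 95% Wilson interval. The divergent pairs sit between 92.7% and 95.9%, above both other classes in each of the 4 lists.

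Part of this gap depends on which single genes are counted. Without olfactory and vomeronasal receptor genes, predicted genes and Rik clones in either class, the difference was 35.9 percentage points. A region with 2 genes can also be called through either of them.

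Between tissues, the liver lists averaged 93.3 ± 0.842% of divergent regions called and the yolk sac lists 95.9 ± 0% (SD, n = 2 each). The difference of 2.58 points was larger than the gap between replicates (exact two-sided permutation p = 0.333, the smallest that 2 against 2 libraries allow). Its direction depended on how many peaks each list holds. When the same number of highest-scoring peaks, 24333, was taken from each list, yolk sac was lower instead (-6.88 percentage points). Single-gene promoters differed by 6.46 points between tissues, and the difference of the differences was -3.88 (exact permutation p = 0.333). The p-values between tissues rest on the spread between pools of embryos. The sign-flip p-values rest on differences within each of 4 lists, which come from both tissues and are read over the same genes. In such whole tissue, fewer cells of a type and less initiation per cell cannot be told apart.

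Nearly all of the called pairs were called everywhere. A peak was present in all 4 lists at 697 regions (92.2%), against 48.2% of all protein-coding promoter regions. No peak was present in any list at 29 regions (3.84%), against 39.6%. One region was called in both liver lists and neither yolk sac list (0.132%, against 1.0%), and 14 in both yolk sac lists and neither liver list (1.85%, against 5.32%). The remaining 15 regions were called in part of the libraries of a tissue, and 11 of these lacked a peak only in liver replicate 1. Among regions with a peak in any list, 15 of 727 divergent regions (2.06%) were restricted to 1 tissue in this sense. The share was 11.8% for single-gene promoters (1266 of 10740) and 5.40% for coding genes paired with a long noncoding RNA gene (31 of 574). The difference of -9.72 percentage points from single-gene promoters is a single value without a test, and it ranged from -12.6 to -7.43 over the alternatives tried. Here too a region with 2 genes can be called through either of them, and the part of this in the difference was not tested.

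The peaks had a common layout. Of called regions, 95.6% and 94.9% in liver and 96.6% and 95.9% in yolk sac had both 5′ ends under 1 peak. Yolk sac was higher by 0.953 percentage points without overlap (exact permutation p = 0.333). The difference was 0.629 without liver replicate 2, 0.608 without yolk sac replicate 1 and -0.265 with the higher-scoring 50% of each list. More than 1 peak over a region was seen at 0, 4, 1 and 1 regions. Neighbouring peaks lay at least 548 bp apart in every list, so 2 separate peaks could not cover both ends of a closer pair. At the 82.0% of pairs at most 300 bp apart, a called region could only have 1 peak over both ends or an uncovered end. The 5′ ends lay under 2 separate peaks only at Urod/Hectd3, 904 bp apart, in both yolk sac lists. Urod catalyses a step of heme synthesis, and Hectd3 is a ubiquitin ligase. In liver replicate 1, 1 peak of 3202 bp covered both ends of this pair, and in liver replicate 2 the widest peak, 1902 bp, covered only the Urod end.

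Peaks over divergent regions were wider than those over single-gene promoters. The median width was 1902 and 1677 bp in liver and 1852 and 1652 bp in yolk sac, against 1602, 1452, 1652 and 1502 bp over single-gene promoters. The log2 ratio of the medians was 0.25, 0.21, 0.17 and 0.14 in the 4 lists, with a mean of 0.19 (exact sign-flip permutation p = 0.125). The liver ratios averaged 0.228 ± 0.0281, and those of yolk sac 0.151 ± 0.0195 (SD, n = 2 each). Against coding genes paired with a long noncoding RNA gene the mean log2 ratio was 0.0150 (exact sign-flip permutation p = 0.500), and the medians were equal in both yolk sac lists. The median within-list percentile of the authors' score was 65.1, 64.7, 67.8 and 69.2 for divergent regions and 67.1, 66.2, 70.8 and 71.1 for single-gene promoters, so the wider peaks did not rank higher.

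A divergent peak has a gene side at both ends, where a single-gene peak has a gene side and an upstream side. From each covered 5′ end into its gene, the peak reached a median of 855 and 755 bp in liver and 804 and 726 bp in yolk sac. At single-gene promoters it reached 987, 882, 1017 and 906 bp into the gene, and 575, 519, 609 and 552 bp upstream. The log2 ratio of the gene-side lengths, divergent over single-gene, had a mean of -0.27 and was negative in 4 of 4 lists (exact sign-flip permutation p = 0.125). Each gene side of a divergent peak was thus shorter by its median than the gene side of a single-gene peak and longer than its upstream side.

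Peak width increased with the distance between the 5′ ends. Pairs 0 to 50 bp apart (129 regions) had median widths of 1802, 1552, 1752 and 1552 bp, and pairs 501 to 1000 bp apart (70 regions) had 2452, 2052, 2327 and 2052 bp. The gene-side length stayed between 670 and 886 bp over all 6 distance classes and 4 lists. Calls and layout differed most in the widest class. There, 78.6% and 85.7% of regions were called in liver and 91.4% in each yolk sac list. Both 5′ ends lay under 1 peak in 78.2%, 66.7%, 76.6% and 71.9% of called regions in that class, compared with at least 93.7% in each nearer class. The widest class also held 5 of the 14 yolk-sac-only regions and the liver-only region.

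**Figure D2:**
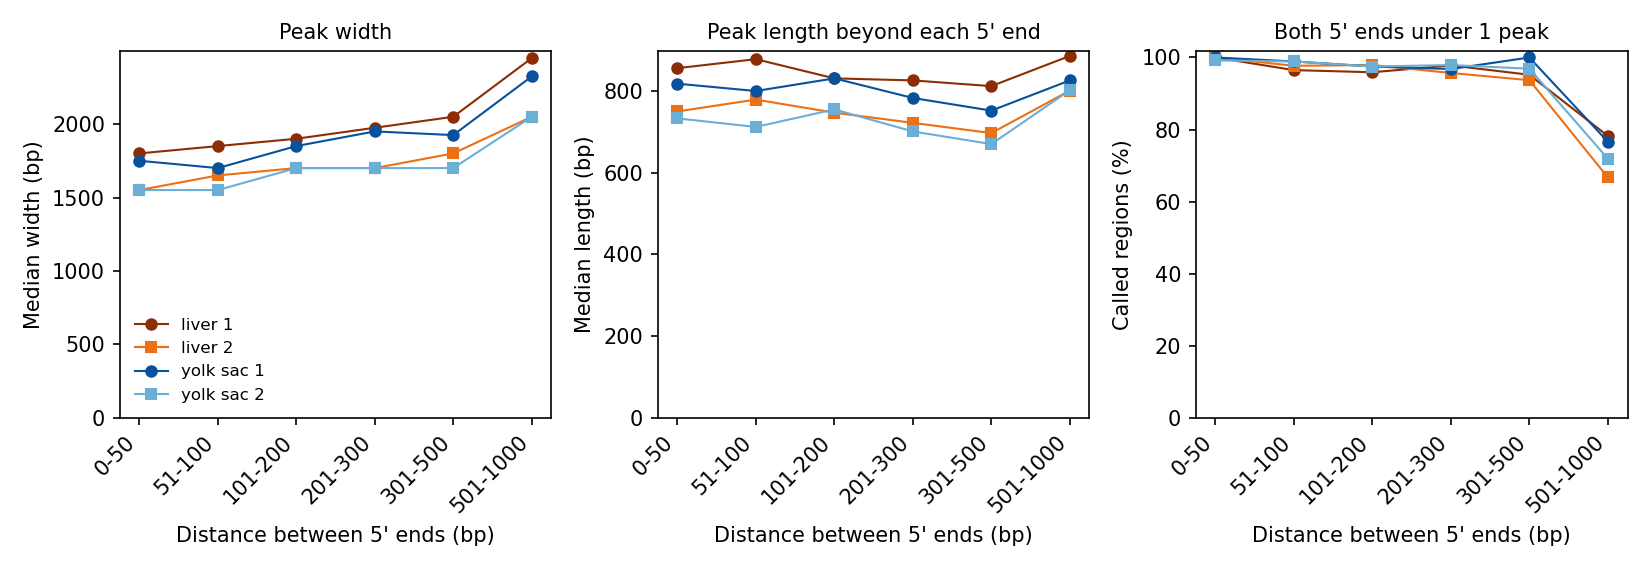
Median peak width (left), median length of the peak beyond a covered 5′ end into the gene (middle) and percent of called regions with both 5′ ends under 1 peak (right), by distance between the 5′ ends and with 1 line per library. Width rises to between 2052 and 2452 bp in the class of 501 to 1000 bp, the gene-side length stays between 670 and 886 bp, and the share with both ends under 1 peak falls to between 66.7% and 78.2%.

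Calls followed the CpG content read from 1 RefSeq promoter per pair. In the 393 pairs with a CpG ratio of 0.8 and over, 97.5% and 98.2% were called in liver and 99.0% and 98.7% in yolk sac. In the 26 pairs under 0.4, the shares were 34.6%, 42.3%, 53.8% and 53.8%, and 12 of the 26 had no peak in any list. Between these, the 47 pairs from 0.4 to 0.6 were called at 89.4%, 91.5%, 95.7% and 95.7%. The pairs under 0.4 also lay farther apart, with a median distance of 186 bp against 106 bp at 0.8 and over, and the part of distance in this pattern was not tested. At some of the 12, such as Rnf151/Rps2 and Dgcr2/Tssk2, a member gene was called in all 4 lists at another annotated start. The CpG ratio there is not that of the called start, and the part of such pairs in the pattern was not tested either. The low group held 7 pairs called in all 4 lists, among them Obsl1/Inha, Sirt6/Ankrd24, Ndufa5/Asb15 and Mrpl41/Pnpla7, which were named after their values were seen. Obsl1/Inha, Sirt6/Ankrd24 and Mrpl41/Pnpla7 lay 625, 743 and 935 bp apart. At such distances the promoter read for 1 gene leaves out that of its partner, whose CpG content was not measured.

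**Figure D3:**
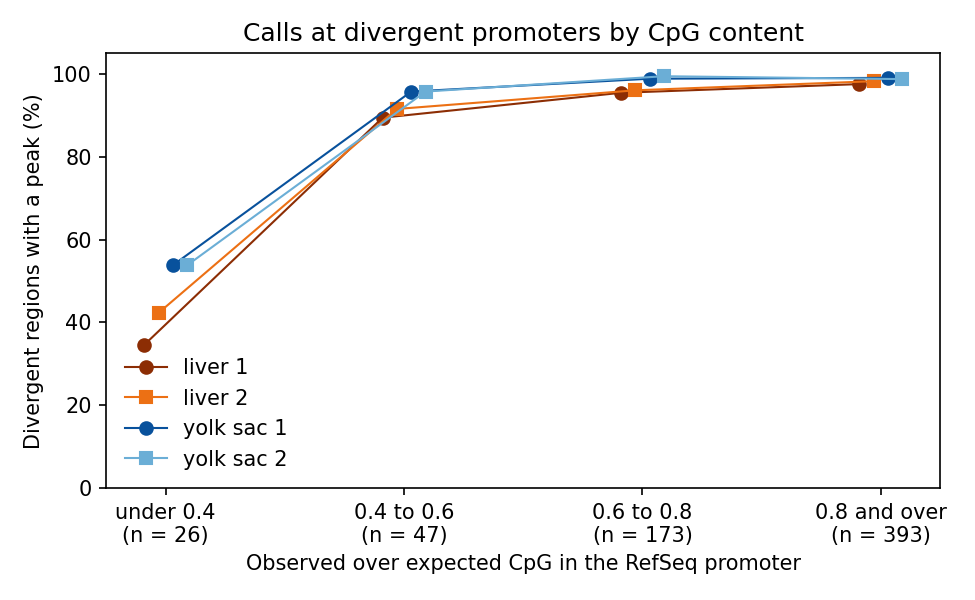
Percent of divergent regions with a peak (vertical axis) in 4 classes of the ratio of observed to expected CpG. The ratio was read from 1 RefSeq promoter per pair. Each library has 1 line, and the number of pairs stands under each class. All 4 lists sit between 34.6% and 53.8% in the lowest class and at 97.5% or above in the highest.

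Among the gene pairs best known for this arrangement, histones aside, 5 of the 6 found by the rule were called in all 4 lists with both 5′ ends under 1 peak. Atm, a kinase of the response to DNA breaks, and Npat, a coactivator of histone genes, lay 307 bp apart under peaks of 2252, 2052, 2302 and 2252 bp. The widths of this pair differed little between tissues and overlapped. Wrap53/Trp53, 104 bp apart, had 4052, 3702, 3602 and 3552 bp, and in bp both liver lists were wider by a small margin. These widths were not divided by the median of each list. Over pairs called in all 4 lists that median also differed, at 1902, 1702, 1852 and 1652 bp, so the margin tells little about the tissues. Trp53 is the p53 tumour suppressor, and Wrap53 is needed for telomerase to reach Cajal bodies. Brca1/Nbr1, 194 bp apart, had 2752, 2602, 2802 and 2202 bp, and Psmb1/Tbp, 137 bp apart, had 3102, 2952, 3002 and 2902 bp. Mcm4, a subunit of the replicative helicase, and Prkdc, the DNA-dependent protein kinase, lay 466 bp apart under peaks of 2302, 1702, 1652 and 1552 bp. The sixth pair, Col4a4/Col4a3, had no peak in any list. Hspd1/Hspe1, Col4a1/Col4a2, Surf1/Surf2 and Paics/Ppat are well known too but did not meet the rule in these gene records.

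DNA repair was the family with the most pairs. Of 104 annotated genes on the list, 34 were members of 37 pairs, and all 37 regions were called in all 4 lists. The closest of them included Lig4/Abhd13, 21 bp apart with widths of 3102, 2552, 2852 and 2652 bp. Lig4 is the ligase of non-homologous end joining. Emc3/Fancd2, 30 bp apart, had narrower peaks of 1502, 1352, 1302 and 1052 bp, and Dclre1a/Nhlrc2, 39 bp apart, had 2952, 2502, 2402 and 2302 bp. DNA replication had 9 of 56 genes in 9 pairs, all called in all 4 lists, with Orc3/Rars2, 13 bp apart, the closest. Orc3 is a subunit of the origin recognition complex and Rars2 the mitochondrial arginyl-tRNA synthetase, and their peaks were 2302, 2252, 2452 and 1702 bp wide.

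Genes of mitochondria were frequent too. Subunits of the respiratory chain gave 18 of 82 genes in 18 pairs, all called in all 4 lists. Rps28/Ndufa7, 10 bp apart, had peaks of 1902, 2002, 1902 and 1552 bp, and Tatdn1/Ndufb9, 18 bp apart, had 2102, 2152, 1602 and 1352 bp. Mitochondrial ribosomal proteins gave 18 of 78 genes in 18 pairs, of which 17 were called in all 4 lists. The other, Eme2/Mrps34, had no peak in liver replicate 1, 952 bp in liver replicate 2 and 4102 and 3652 bp in yolk sac. Mrpl54/Apba3, 26 bp apart, had narrow peaks of 902, 752, 952 and 702 bp. Mrps12/Sars2 joins a mitochondrial ribosomal protein to the mitochondrial seryl-tRNA synthetase, with peaks of 1652, 1352, 1552 and 1352 bp. It was chosen after its values were seen.

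Other household families were called as widely. Proteasome subunits and assembly factors (8 pairs), aminoacyl-tRNA synthetases (5 pairs) and ciliary genes (9 pairs) were called in all 4 lists at every region. Tnfaip1/Ift20, 29 bp apart, holds a subunit of intraflagellar transport and had peaks of 1602, 1502, 2252 and 1952 bp, wider in both yolk sac lists. Dnajc2/Psmc2, 32 bp apart, holds an ATPase of the proteasome cap and had 3552, 1302, 2902 and 1152 bp, so its replicates differed more than its tissues. Chaperones had 12 pairs, 11 of them in all 4 lists, and the exception was Hspa1a/Hspa1l, 547 bp apart. That region had no peak in liver replicate 1 and peaks of 202, 602 and 502 bp in the others, and Hspa1a has a near-identical neighbouring copy, so its calls are uncertain. Cytosolic ribosomal proteins had 9 of 85 genes in pairs, 7 of them called in all 4 lists. The others were Polr3a/Rps24, without a peak in liver replicate 1, and Rnf151/Rps2, without any peak. Of 391 zinc finger genes of the Zfp series, 20 were in pairs (5.12%), and of 369 solute carriers 16 (4.34%), near the 6.79% of all protein-coding genes. Of those regions, 16 of 18 and 14 of 15 were called in all 4 lists. Slc25a29/Slc25a47, 163 bp apart, joins 2 mitochondrial carriers, with peaks of 1452, 1402, 1752 and 1702 bp. Over all families, the shares called in all 4 lists are read against 92.2% for all divergent regions and do not set any family apart.

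Histone pairs had the widest median peaks of the families listed. Of 67 replication-dependent histone genes, 27 were in 14 pairs, 13 of which joined 2 histone genes. The median widths were 3702, 3552, 3152 and 2852 bp over the called pairs, against 1902, 1677, 1852 and 1652 bp for all called divergent regions. Of the 14, 11 were called in all 4 lists and 3 in none. Hist1h2ac/Hist1h2bc, 251 bp apart, had peaks of 3852, 3602, 4202 and 3402 bp with no other coding 5′ end under them. Some pairs lay so close to the next that 1 peak spanned both: Bola1/Hist2h2ab and Hist2h2ac/Hist2h2be shared peaks of 3702, 3552, 3302 and 2852 bp. Histone genes of a cluster are near-identical in sequence, reads can be placed at any copy, and calls and gaps at single histone pairs are therefore uncertain.

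The 6 pairs with the highest rank in all 4 lists, by the lowest of 4 score percentiles, had both 5′ ends under 1 peak throughout. Rfng/Gps1 led with percentiles of 96.5, 99.7, 99.5 and 96.0 and widths of 2352, 2202, 2202 and 2002 bp. Ttc9c/Hnrnpul2, Nae1/Car7, Ska3/Mrpl57, Zfp142/Bcs1l and Tomm6/Frs3 followed. Their widths varied. Nae1/Car7 had 1702, 1402, 1452 and 1252 bp, below the medians of 1902, 1702, 1852 and 1652 bp over pairs called in all 4 lists, and Ska3/Mrpl57 and Zfp142/Bcs1l were also below them. Ttc9c/Hnrnpul2 had 3502, 3152, 3202 and 2952 bp and Tomm6/Frs3 had 3252, 3202, 3302 and 2352 bp, both above the upper quartiles of 2452, 2152, 2402 and 2052 bp. The 4 widest by the mean of the lists were Tshz1/Zadh2 (4802 ± 495 bp, SD, n = 4), Mrps18b/Ppp1r10 (4652 ± 204 bp), Zbtb25/Zbtb1 (4614 ± 217 bp) and Peg3/Usp29 (4602 ± 1311 bp). The large SD of Peg3/Usp29 came from the tissues, with 3302 and 3652 bp in liver and 5852 and 5602 bp in yolk sac. Peg3 and Usp29 are imprinted genes expressed from the paternal copy. The gain in yolk sac lay on the Usp29 side, where the peak reached 574 bp in each liver list and 2524 and 2374 bp in yolk sac. Sgce/Peg10, another imprinted pair, named after its values were seen, had 2952, 2752, 3752 and 3502 bp.

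Cell types differ between the tissues, and their markers were read from the same lists. A peak lay at or near the 5′ end of 7 of 9 erythroid markers in each liver list and of 2 of 9 in each yolk sac list. For endothelial markers the numbers were 3 and 4 of 5 in liver and 5 of 5 in each yolk sac list. One of these 5, Pecam1, is itself a member of a divergent pair. The yolk sac peak counted for it did not cover the Pecam1 5′ end, only that of its partner Milr1. The other endothelial markers were called at 3 and 4 of 4 in liver and 4 of 4 in yolk sac. For mesenchymal markers the numbers were 6 and 8 of 10 against 10 of 10. Yolk sac endoderm markers were called at 8 and 6 of 10 in liver and at 10 of 10 in yolk sac. Hepatocyte markers were called at 8 and 7 of 10 in liver and 7 of 10 in each yolk sac list, so they do not tell the labelled tissues apart.

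The single liver-only region was Slc27a5/Trim28, 922 bp apart on chromosome 7. Slc27a5 activates bile acids and long fatty acids with coenzyme A, and Trim28 is a corepressor of zinc finger proteins. The peak was 802 bp wide in both liver lists, at percentiles of 24.4 and 19.1, and covered the Slc27a5 end at 12998192 but not the Trim28 end at 12999114. Trim28 had another annotated start 25038 bp into the gene that was called in all 4 lists. The count is small and unstable: it was 20 with equal list lengths and 0 when pairs over 500 bp apart were left out.

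The 14 yolk-sac-only regions had narrower peaks than the class as a whole, with median widths of 902 and 677 bp, and 7 of them had both 5′ ends under 1 peak in both lists. Pecam1/Milr1 ranked highest, with 1852 bp in each list at percentiles of 90.0 and 93.2. Pecam1 is an adhesion molecule of endothelium and Milr1 a receptor of mast cells. The peak covered the Milr1 end only, and Pecam1 had another start 35234 bp into the gene that was called in all 4 lists. Odf3l1/Cspg4 had 1402 and 752 bp, and Cspg4 is a proteoglycan of pericytes. Sncg/Mmrn2 had 752 and 402 bp over the end of Mmrn2, a matrix protein of endothelium. Mesenchymal markers were also called more often in yolk sac, and their part in the result was not tested. Apart from Pecam1 itself, the endothelial markers were lower in 1 liver list only. Klc3/Ckm had 452 and 802 bp over the Klc3 end, and the end of Ckm, the muscle creatine kinase, was not covered.

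The other named pairs had peaks of at most 1002 bp. Smc1b/Ribc2 had 852 and 602 bp and Zfyve28/Cfap99 had 1002 and 952 bp, both with both ends covered in each list. Kctd19/Lrrc36 (802 and 552 bp), Tssk3/Fam229a (752 and 402 bp), Nup62cl/Pih1h3b (952 and 802 bp) and Asphd1/Sez6l2 (202 and 102 bp) completed the 10 named pairs, and 4 further pairs hold predicted genes or Rik clones. One of these 4 had the widest yolk-sac-only peak, 2452 and 2502 bp. Asphd1/Sez6l2 rests on peaks at percentiles of 17.2 and 2.80 that covered neither end. Leaving out liver replicate 2 raised the count from 14 to 25 regions, and with equal list lengths it was 6.

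The 29 regions without a peak fell into 2 kinds. In 10 of them, a member gene had another annotated start that was called in all 4 lists. Rps2 was called 1947 bp into its gene record, Aspa, which cleaves N-acetylaspartate, 2789 bp, and Dgcr2 6869 bp. At these genes the called start was not the outermost annotated 5′ end by which the pair was chosen. The other kind includes Col4a4/Col4a3, Kirrel2/Nphs1, whose products are proteins of the kidney filter, Smyd1/Cd8b1, genes of muscle and of T cells, and Hist1h2ba/Hist1h2aa, histone variants of the testis. One of the 29 is mt-Nd6/mt-Cytb on the mitochondrial chromosome, where the lists hold 0 peaks.

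In regions called in all 4 lists, peak width was compared between tissues. Each width was divided by the median width of its list over all 10232 coding promoter regions called in all 4 lists. A region was counted when the tissues did not overlap and their mean log2 widths differed by at least 1.5-fold. Of 697 divergent regions, 52 (7.46%) were wider in liver, against 7.04% of all coding promoter regions, and 41 (5.88%) were wider in yolk sac, against 13.1%. The share wider in liver was thus near the background, and the share wider in yolk sac was below it. The median log2 difference, yolk sac minus liver, was -0.14 over divergent regions and -0.03 over all. The pairs named next were picked after their values were seen, most but not all of them by the size of this difference. Their folds are descriptions.

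The largest difference in favour of liver was at Lsm7/Sppl2b, with 5702 and 5652 bp in liver and 1152 and 1052 bp in yolk sac, a scaled fold of 5.48. On the Sppl2b side the peak reached 4777 and 4727 bp in liver and 427 bp in each yolk sac list, and no other coding 5′ end lay under it. Acp1/Sh3yl1 had 5402 and 5202 bp in liver against 2052 and 1802 bp, with the gain on the side of Acp1, a small tyrosine phosphatase. Urod/Hectd3, the pair with separate peaks in yolk sac, had 3202 and 1902 bp against 952 and 902 bp. These are not widths of the same peak. The widest yolk sac peaks covered the Hectd3 end only, and the widest of liver replicate 2 the Urod end only. Atp7b, a copper transporter of hepatocytes, and Alg11, a mannosyltransferase, had 3252 and 3202 bp against 1802 and 1752 bp. The Atp7b side accounted for the gap, at 2254 and 2204 bp in liver and 754 and 704 bp in yolk sac. The next 2 pairs had smaller differences and were not picked by size, since larger ones such as Nubp2/Spsb3 (scaled fold 2.89) were passed over. Sptbn4/Blvrb had 2452 and 2952 bp against 2052 and 1302 bp, a scaled fold of 1.75, and Blvrb is a biliverdin reductase of red cells. Leaving out 1 library lowered the fold of this pair to as little as 1.48, under the limit of 1.5. Aurka/Cstf1 had 2952 bp in each liver list against 1952 and 1752 bp, a scaled fold of 1.70, and Aurka is a mitotic kinase. The erythroid markers given above were also called more often in liver, and their part in these widths was not tested.

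In favour of yolk sac, Usp35/Kctd21 had 502 and 602 bp in liver and 2252 and 2302 bp in yolk sac, a scaled fold of 3.90. The liver peaks did not reach the Usp35 end, and the yolk sac peaks extended 1169 and 1269 bp beyond it. Fam219a/Dnaic1 had 352 and 552 bp against 1952 and 1902 bp. Zfp408/Arhgap1 had 1652 bp in each liver list and 4602 and 3502 bp in yolk sac, and both sides gained. Fhod1/Slc9a5 had 1802 and 1902 bp against 4802 and 3452 bp, and Pcdh12/Rnf14, with a protocadherin of endothelium, had 1202 and 902 bp against 2452 and 1952 bp. Apart from Pecam1, the endothelial markers given above differed from yolk sac in 1 liver list only. At Trpc5/Rtl4 (852 and 252 against 2352 and 2252 bp) and Polr2l/Tspan4 (302 and 2252 against 4052 and 3802 bp) the liver lists differed widely. The size of the fold, though not its direction, depended on the list. Leaving out 1 library moved the fold of Polr2l/Tspan4 between 1.54 and 13.0 and that of Trpc5/Rtl4 between 2.71 and 8.07. The fold of Nabp2/Rnf41, 2.12 with all libraries, fell as low as 1.44, under the limit of 1.5.

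**Figure D4:**
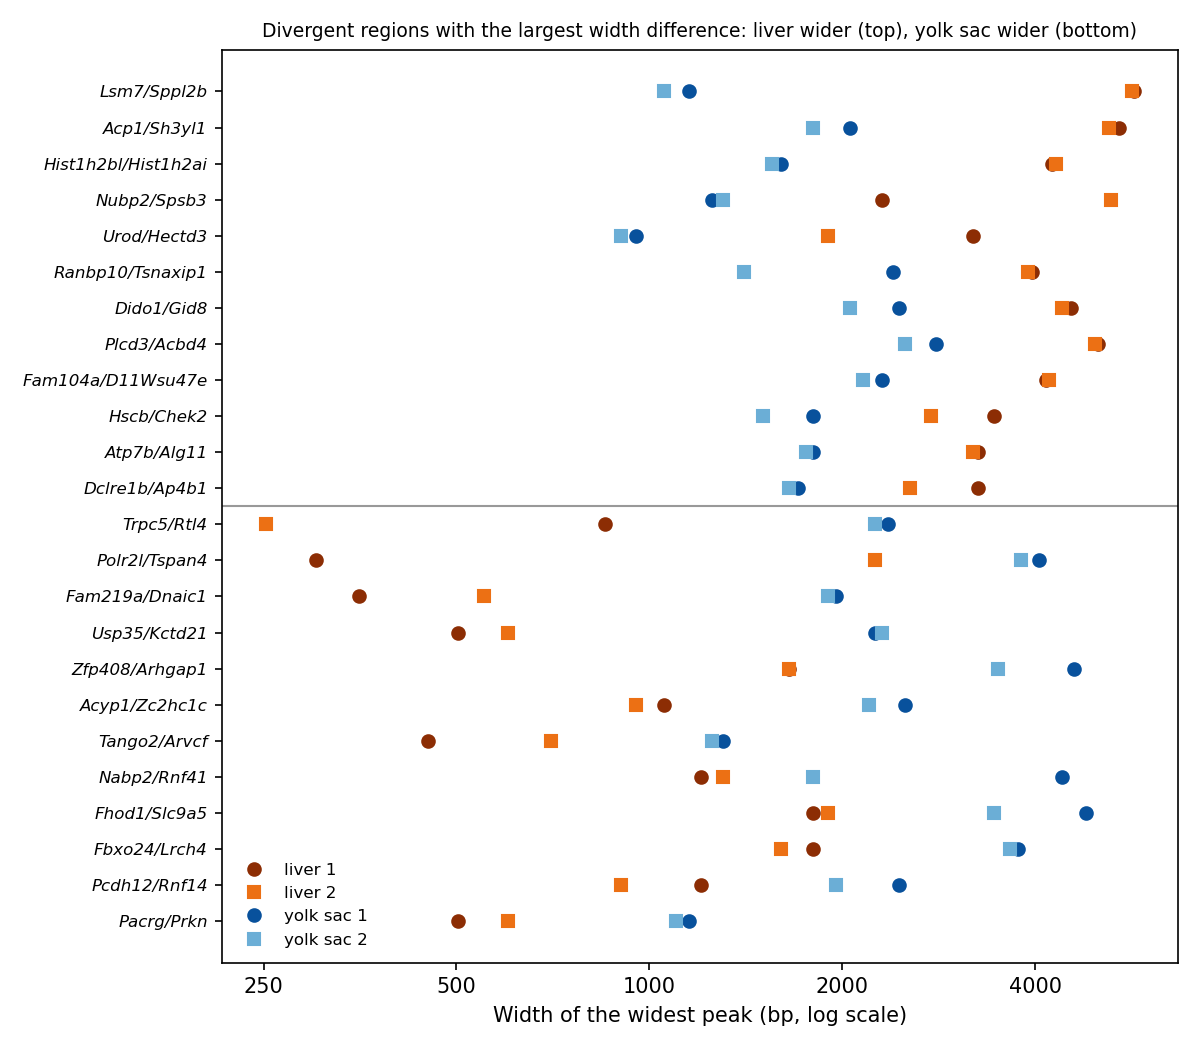
Width of the widest peak (horizontal axis, log scale) at the 12 named divergent pairs with the largest difference in each direction, with 1 symbol per library. Lsm7/Sppl2b runs from 1052 to 5702 bp, and the 2 liver values of Polr2l/Tspan4 lie at 302 and 2252 bp.

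Many peaks lay off centre. Of 659 pairs with 1 peak over both ends in all 4 lists, 420 (63.7%) had the longer gene side on the same side in every list. At 71 pairs (10.8%) the longer side was at least 2 times the shorter in all 4 lists, 37 towards the plus-strand gene and 34 towards the minus-strand gene. Mepce, which caps 7SK RNA, had 2854, 3004, 3154 and 2954 bp on its side, while the side of Zcwpw1, a reader of histone marks in meiosis, had 104, 104, 404 and 54 bp. Rad51c, a recombination protein, had 1303, 1203, 1203 and 1203 bp against 37, 87, 187 and 187 bp for Tex14, a gene of germ cell bridges. Ndufa8 had 1255, 1305, 1305 and 1105 bp against 244, 144, 244 and 194 bp for Morn5. In these 3 of the 71 pairs the long side belonged to a gene known to be used in most cell types. The other pairs were not sorted in this way, so nothing follows for the 71 pairs as a group. In the other direction, Tlcd1 had 3691, 3691, 3741 and 3691 bp against 674, 674, 624 and 624 bp for Nek8. Brca1/Nbr1 leaned to Nbr1, an autophagy receptor, with 1803, 1653, 2053 and 1903 bp against 754, 754, 554 and 104 bp. These pairs were named after their values were seen.

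The longer side was on opposite sides in the 2 tissues, in both replicates of each, at 68 of the 659 pairs (10.3%). Orc3/Rars2 is one of them, with 1393 bp in each liver list and 943 and 793 bp in yolk sac on the Orc3 side, and 895, 845, 1495 and 895 bp on the Rars2 side. At 2 of the 68 the longer side exceeded the shorter by at least 1.5 times in all 4 lists. At Acp1/Sh3yl1, the Acp1 side had 3638 and 3588 bp in liver and 738 and 538 bp in yolk sac, while the Sh3yl1 side had 1684, 1534, 1234 and 1184 bp. At Acyp1/Zc2hc1c, the Acyp1 side had 737, 587, 687 and 587 bp, and the Zc2hc1c side rose from 161 and 211 bp in liver to 1661 and 1461 bp in yolk sac. No test was made of these pairs, since they were found by their values.

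**Figure D5:**
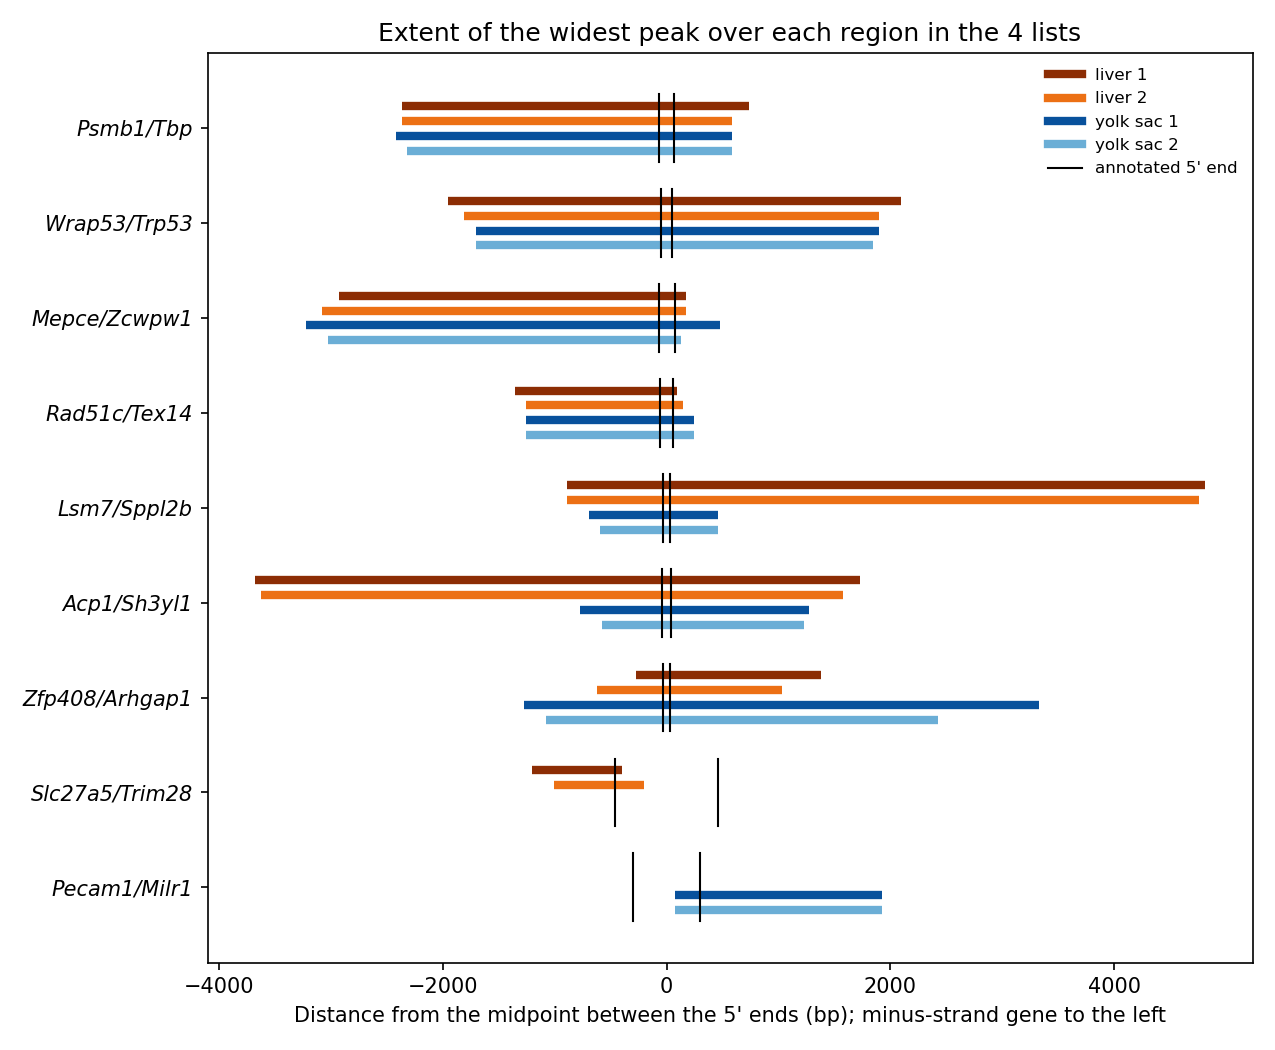
Extent of the widest peak in each list (coloured bars) around the midpoint between the 5′ ends (horizontal axis, bp, minus-strand gene to the left), with vertical lines at the 5′ ends of 9 pairs. Psmb1/Tbp has 4 bars of nearly equal length, Lsm7/Sppl2b has 2 long liver bars, and Slc27a5/Trim28 and Pecam1/Milr1 have bars from 1 tissue that cover 1 end.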

How the data were processed

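In all, 4 dREG peak lists were analysed, 1 per PRO-seq library, with chromosome, start, end and the authors' deposited score of each peak, which has no unit and was used only to rank peaks within a list. Reads were handled with Bowtie2 and bedtools on mm10, per the submitters' processing notes, and the dREG version and filters are not given in the sources used here. Peaks were called per library, and neighbouring peaks lay at least 548 bp apart in every list, so close starts cannot appear as separate peaks. The number of reads is unknown. Promoter regions were built from GENCODE vM21 gene records and intersected with the lists in Python 3.11.15 (numpy 2.4.6, pandas 2.3.3, matplotlib 3.10.9), with positions 1-based. Where several peaks lay over a region, the widest gave its width. Libraries were compared with exact permutation tests, over which the smallest p-values are 0.333 between tissues and 0.125 within libraries. The calling of patterns and widths was tested on simulated data: all 724 planted regions were returned. These regions lay far apart, had at most 1 centred peak per list and were never called in only part of a tissue's libraries. Widths were checked in liver replicate 1. The check thus covers the code in simple cases, and crowded or partly called regions were not simulated.

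Pairs named are the liver-only and yolk-sac-only pairs without predicted genes or Rik clones (up to 10 by rank, which took all 10), the 6 highest-ranking and 4 widest pairs called in all 4 lists, known pairs, pairs of fixed gene families and pairs under separate peaks. Others are said to be chosen after their values were seen. The members, gene families and tests were chosen with earlier results of these data known, and 2 family patterns were corrected afterwards. Alternatives changed the list length, score, flank, window, distance and comparison class, and left out each library.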

Additional observations from a re-analysis of the deposited data

How the results depend on the processing

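Of 151 values under the alternatives, for 11 results, 2 reversed and 37 moved by more than the replicate spread, or by more than 1.5 times for counts. With the same number of highest-scoring peaks per list, the tissue difference in the percent of divergent regions called reversed from 2.58 to -6.88, its difference from single-gene promoters was -5.42, the log2 width ratio 0.156, the tissue difference in both ends under 1 peak 1.84 percentage points, the log2 gene-side ratio -0.292, and 20 regions were liver-only and 6 yolk-sac-only. With the higher-scoring 50% of each list the tissue difference was 9.85, divergent minus single-gene 39.6, the difference of differences -0.257, the width ratio 0.103 and the gene-side ratio -0.334. Both ends under 1 peak reversed to -0.265, with 12 liver-only and 62 yolk-sac-only regions, 28 wider in liver and 16 wider in yolk sac. With the peak midpoint required inside the region, the tissue difference was 3.84, divergent minus single-gene 44.9, the difference of differences -1.01 and the width ratio 0.252, with 13 liver-only, 40 yolk-sac-only, 22 wider in liver and 25 wider in yolk sac. Without receptor, predicted and Rik genes, divergent minus single-gene was 35.9 and its tissue difference -5.26. Single-gene promoters with no gene of any type within 2000 bp gave 46.6, a width ratio of 0.237 and a gene-side ratio of -0.247. A flank of 250 bp gave 2 liver-only regions, and a limit of 500 bp gave 0 liver-only and 9 yolk-sac-only. Leaving out 1 library gave 1 to 2 liver-only (2 without yolk sac replicate 1), 14 to 25 yolk-sac-only (25 without liver replicate 2) and gene-side ratios of -0.294 to -0.250. The cause of these shifts was not tested. The other settings moved no result beyond these limits.

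The replicate numbers are shared between tissues without a stated pairing. With the replicate number as a block, the differences were again 2.58, -3.88 and 0.953 percentage points (exact permutation p = 0.500, the smallest possible with 2 pairs). The gene-side ratio, the share restricted to 1 tissue and the width counts, with their alternatives, were added after seeing the data. With the read depth unknown, an uncalled region cannot be told from one sequenced too little, and the yolk sac lists are the longer ones.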
